A study of Mus musculus with 7 samples.

Results

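The miR-26 family of the mouse kidney was described from the 2 guide strands that the array measured, miR-26a and miR-26b, out of 611 mouse microRNAs on the array. They were found by name, as the probes annotated mmu-miR-26a and mmu-miR-26b. Levels came from whole kidneys of 3 homozygous megabladder males (mgb-/-, mice 2, 3 and 4), set against 4 wild-type males (mgb+/+, mice 1 to 4), with 1 array of 1 colour per mouse. The megabladder mouse is an insertional mutant with a failure of bladder smooth muscle, which obstructs the urinary tract and leads to hydronephrosis. All animals were labelled as 4 weeks old, with 3.5 to 4 weeks in the extraction protocol. The design text counts 4 mutant kidneys, of which the one numbered 1 was not analysed here. The comparison asks which kidney microRNAs differ in congenital obstruction, and for this family whether both paralogs stand at the same level in obstructed kidneys. A whole kidney holds all of the organ's cell types, so fewer cells of a type and less RNA per cell cannot be told apart.

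A microRNA is a short RNA that guides a silencing complex to messenger RNAs, mainly by pairing of its seed near the 5′ end. The miR-26 family is found in most tissues, and its members lie inside genes for small phosphatases that act on RNA polymerase II and restrain entry into the cell cycle. Ezh2, the methyltransferase of the Polycomb complex, and connective tissue growth factor, a matrix regulator, are among the targets described for miR-26. In the RefSeq annotation of GRCm38, miR-26a is encoded at 2 loci, Mir26a-1 within Ctdspl on chromosome 9 and Mir26a-2 within Ctdsp2 on chromosome 10. miR-26b is encoded at 1 locus, Mir26b within Ctdsp1 on chromosome 1. All 3 lie on the plus strand of that assembly.

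The mature sequences are shown because the pair shares its seed and differs only outside it. They are from RefSeq (GRCm38), written 5′ to 3′, with the seed, bases 2 to 8, in capitals.
miR-26a: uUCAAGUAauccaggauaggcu
miR-26b: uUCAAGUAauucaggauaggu
The same sequences are given again with the bases that differ in capitals.
miR-26a: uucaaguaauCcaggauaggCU
miR-26b: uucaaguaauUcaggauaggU
Counted from 1 at the 5′ end, and with miR-26a first, the substitutions are C11U and C21U, and miR-26a (22 bases) has 1 base more than miR-26b (21 bases). Of the first 21 positions 19 are identical. Among 1679 mature mouse microRNA names in the RefSeq table, 2 carry the seed UCAAGUA, and they are these members.

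The precursors are shown because both miR-26a loci give the same guide strand, so that no array signal can be assigned to one of them. Capitals mark the guide arm.
Mir26a-1: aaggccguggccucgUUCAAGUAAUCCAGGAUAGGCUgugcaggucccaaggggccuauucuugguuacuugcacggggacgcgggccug
Mir26a-2: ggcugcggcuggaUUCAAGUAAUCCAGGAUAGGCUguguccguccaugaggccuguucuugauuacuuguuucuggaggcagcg
Mir26b: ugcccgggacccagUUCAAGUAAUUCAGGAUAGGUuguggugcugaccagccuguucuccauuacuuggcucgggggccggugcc
The opposite arm of a precursor gives the passenger strand, which is usually degraded. Of the passenger strands, that of Mir26b (miR-26b*, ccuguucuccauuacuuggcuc) was on the array.

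The 7 arrays shared 1 slide and 1 scan, and each genotype filled a row of its own on that slide, so genotype and row cannot be told apart. The software detected 232 to 233 mouse microRNAs on megabladder arrays and 213 to 239 on wild-type arrays. Signals were scaled by a factor per array, the 75th percentile over the 292 probes above background on all arrays. It was 223.5 to 333.4 scanner units in megabladder arrays and 348.1 to 495.8 units in wild-type arrays. Wild-type mice 3 and 4 stood apart from the other arrays on the first principal component (7.22 and 6.92, against -4.10 to -0.99), which held 70.8% of the variance. Of 6 tested microRNAs fixed as tubule markers, miR-30a stood at 10.33 log2 units and miR-192, abundant in the proximal tubule, at 10.10 units (mean of 7 arrays). The 4 markers of liver, neurons and pancreatic islets (miR-122, miR-124, miR-9 and miR-375) were not well above background on enough arrays to be tested. In 5 other marker lists the summed signals of the genotypes overlapped, as in erythroid markers at 1952 to 3724 units in megabladder and 2129 to 2811 units in wild-type kidneys. The summed stroma list also overlapped, at 251.2 to 406.7 units in megabladder and 212.4 to 267.6 units in wild-type kidneys. All 3 of its members were higher in megabladder kidneys, miR-199a-3p by 0.42, miR-199a-5p by 0.39 and miR-214 by 0.38 log2 units. None of the 3 passed the test between genotypes (adjusted p = 0.210 to 0.247, limma), which 3.29% of all 213 tested microRNAs did. miR-199a-5p did not overlap between genotypes, as for 22.1% of the tested microRNAs in either direction. miR-205, the defining urothelial marker, was at 3.51 log2 units, the floor to which lower signals were set, in all wild-type arrays and at 4.74 on average in megabladder arrays. It did not pass limma's test (adjusted p = 0.0712), and with wild-type arrays at the floor its difference rests on the megabladder arrays. The other urothelial markers went both ways and did not pass, miR-31 at 0.44 (adjusted p = 0.214, limma) and miR-203 at -0.17 (adjusted p = 0.820, limma). The part of these cell types in the miR-26 values was not tested.

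Both members were read by 2 probes of 10 spots each, probes A_54_P2481 and A_54_P4384 for miR-26a and probes A_54_P2483 and A_54_P2484 for miR-26b. All spots used were well above background on all 7 arrays, 135 of 135 for miR-26a and 130 of 130 for miR-26b, after 5 and 10 spots with outlier flags were left out. The spread between spots of a probe was 2.43% to 6.19% of the mean for miR-26a and 1.64% to 5.87% for miR-26b. As a standard error of the level this gave 0.0095 to 0.019 log2 units for miR-26a and 0.010 to 0.017 log2 units for miR-26b. The spread between mice was several times larger than this spot error. Spot error is not the whole error of measurement. The software's own error per array was 7.46% to 7.58% of the total signal of miR-26a and 7.27% to 7.36% of that of miR-26b. Whether a probe for one member also binds the other, which differs at few bases, was not tested. The passenger strand miR-26b* was read by 4 probes, and 0 of its 136 spots were well above background, so it is given no level and no fold. Its probe means ran from -1.78 to 3.32 scanner units, where the probes of miR-26b itself ran from 181.1 to 897.0 units.

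miR-26a was among the brightest mouse microRNAs of the kidney in both genotypes, and miR-26b stood lower but still among the brighter ones. By signal, miR-26a ranked 13, 11 and 13 of 611 in megabladder mice 2, 3 and 4, and 11, 12, 13 and 15 in wild-type mice 1 to 4. The rank of miR-26b was 34, 36 and 36 in megabladder mice and 33, 33, 32 and 34 in wild-type mice. These are ranks of signal and not of molecule number, because probes differ in how strongly they bind. By the mean level over 7 arrays, the microRNAs just above miR-26a (10.23 log2 units) were let-7g (10.46) and miR-30a (10.33), and just below it stood miR-192 (10.10) and let-7d (10.02). Each of these lay more than 1 SD of the level of miR-26a over the arrays (0.071) away from it. By the SD of the neighbour itself, miR-192 (SD 0.28) lay within 1 SD and the other 3 did not. Above miR-26b (8.72) stood miR-103 (8.76) and miR-125b-5p (8.74), and below it miR-15b (8.57) and miR-10b (8.53). All of these but miR-10b lay within 1 SD of the level of miR-26b over the arrays (0.15).

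As a share of the software's total signal over all mouse microRNAs, miR-26a took 1.98%, 2.08% and 1.84% in megabladder mice, and 2.14%, 2.06%, 2.11% and 1.83% in wild-type mice. The highest and the lowest share were both in wild-type mice. For miR-26b the share was 0.685%, 0.632% and 0.568% in megabladder mice, against 0.708%, 0.722%, 0.748% and 0.678% in wild-type mice. Megabladder mice 3 and 4 had the lowest shares of miR-26b, and megabladder mouse 2 lay between wild-type mice 4 and 1.

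The level of miR-26a, on a log2 scale after scaling, differed between genotypes by less than the spread between mice. It stood at 10.25, 10.14 and 10.21 in megabladder mice 2, 3 and 4, against 10.26, 10.21, 10.36 and 10.17 in wild-type mice 1 to 4. The ranges overlapped, with the lowest value in megabladder mouse 3 and the highest in wild-type mouse 3. The mean was 10.20 ± 0.06 in megabladder kidneys (SD, n = 3) and 10.25 ± 0.08 in wild-type kidneys (SD, n = 4). The difference of -0.05 log2 units (95% interval -0.26 to 0.15) did not pass limma's test (adjusted p = 0.832 over 213 microRNAs, and 0.0445 to 0.995 over all alternatives). In fold terms that interval runs from 0.838 to 1.11 times the wild-type level. With quantile scaling the difference turned to 0.029.

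miR-26b was lower in megabladder kidneys by a difference that did not pass the test. Its level was 8.79, 8.48 and 8.54 in megabladder mice 2, 3 and 4, against 8.73, 8.76, 8.92 and 8.80 in wild-type mice 1 to 4. Megabladder mice 3 and 4 lay below every wild-type mouse, while megabladder mouse 2 lay among them. The mean was 8.60 ± 0.16 in megabladder kidneys (SD, n = 3) and 8.80 ± 0.08 in wild-type kidneys (SD, n = 4). The difference of -0.20 log2 units (95% interval -0.45 to 0.05, or 0.730 to 1.04 times the wild-type level) did not pass limma's test (adjusted p = 0.337, and 0.0348 to 0.745 over all alternatives). Its size depended in part on single megabladder mice, in both directions. Without mouse 2 the difference was -0.29 with an unadjusted p of 0.0331 (adjusted p = 0.313, limma), the lowest p of the fits that leave out 1 array. Without mouse 3 the difference was -0.14 with an unadjusted p of 0.222 (adjusted p = 0.438, limma).

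**Figure D1:**
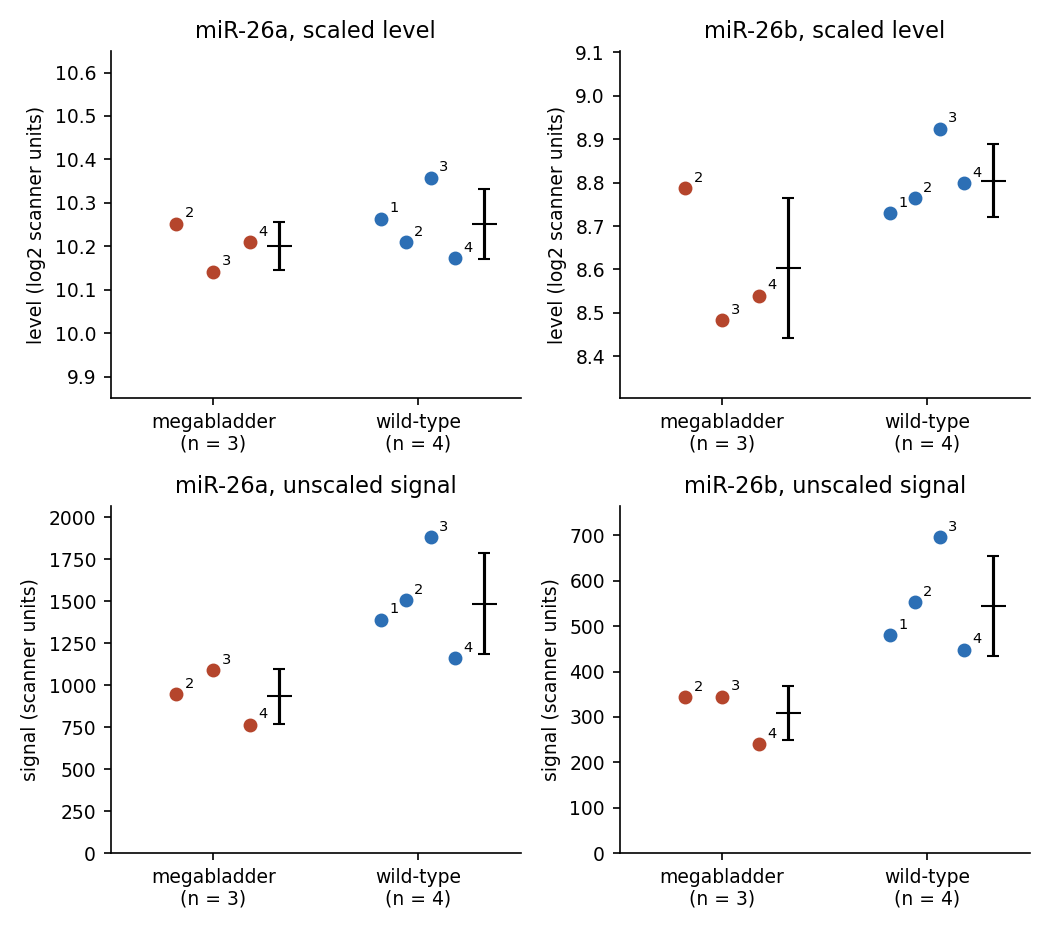
Levels of miR-26a (left) and miR-26b (right) in each mouse, after scaling (top, log2 scanner units, axes cover 0.8 log2 units and do not start at 0) and before scaling (bottom, scanner units). Points are mice with their numbers, and bars are the mean ± SD of 3 megabladder and 4 wild-type mice; the scaled levels overlap between genotypes and the unscaled signals do not.

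Before scaling, both members were lower in every megabladder array. The unscaled signal of miR-26a was 947.7, 1088 and 764.4 units in megabladder mice, against 1390, 1505, 1880 and 1161 units in wild-type mice. The unscaled signal of miR-26b was 343.1, 344.5 and 240.3 units in megabladder mice, against 479.6, 553.1, 695.8 and 448.0 units in wild-type mice. The genotypes did not overlap for either member, as for 39.4% of all 213 microRNAs, which were lower in all megabladder arrays when unscaled. Without scaling limma called both lower, miR-26a at -0.66 (adjusted p = 0.0445) and miR-26b at -0.81 (adjusted p = 0.0348), as it did for 32.9% of microRNAs. The scaling factors given above were also lower in every megabladder array, and what sets them was not tested. With scaling, the test called 3.29% of microRNAs in either direction and 0.469% (1 of 213, let-7e) as lower, and neither member was among them.

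Among all 213 tested microRNAs the median difference was 0.09, and 52 had a lower difference than miR-26a and 18 a lower one than miR-26b. Over the 67 microRNAs with a mean level over 100 units the median was -0.02, and 35 of the 67 were negative. Relative to the median of all tested microRNAs on the same array, miR-26a stood at 4.72, 4.51 and 4.64 log2 units in megabladder mice, against 4.88, 4.86, 5.37 and 5.18 in wild-type mice. On the same measure miR-26b stood at 3.25, 2.85 and 2.97 in megabladder mice, against 3.35, 3.41, 3.93 and 3.81 in wild-type mice. Neither member overlapped between genotypes on this measure, as was the case, in the same direction, for 30.0% of all microRNAs. Neither passed limma's test (miR-26a -0.45, adjusted p = 0.144; miR-26b -0.60, adjusted p = 0.126), a measure chosen after the data were seen. The array median itself moved, at 5.53, 5.63 and 5.57 in megabladder mice and 5.38, 5.35, 4.99 and 4.99 in wild-type mice. It was lowest in wild-type mice 3 and 4, where the median of 17 microRNAs of repeat-rich families (such as miR-466, miR-467 and miR-669, chosen after seeing the data) was at the floor of 3.51 log2 units. That median was 5.70 to 5.92 in megabladder mice, and 5.64 and 5.35 in wild-type mice 1 and 2, so that wild-type mice 3 and 4 stood apart from the other 5 arrays.

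**Figure D2:**
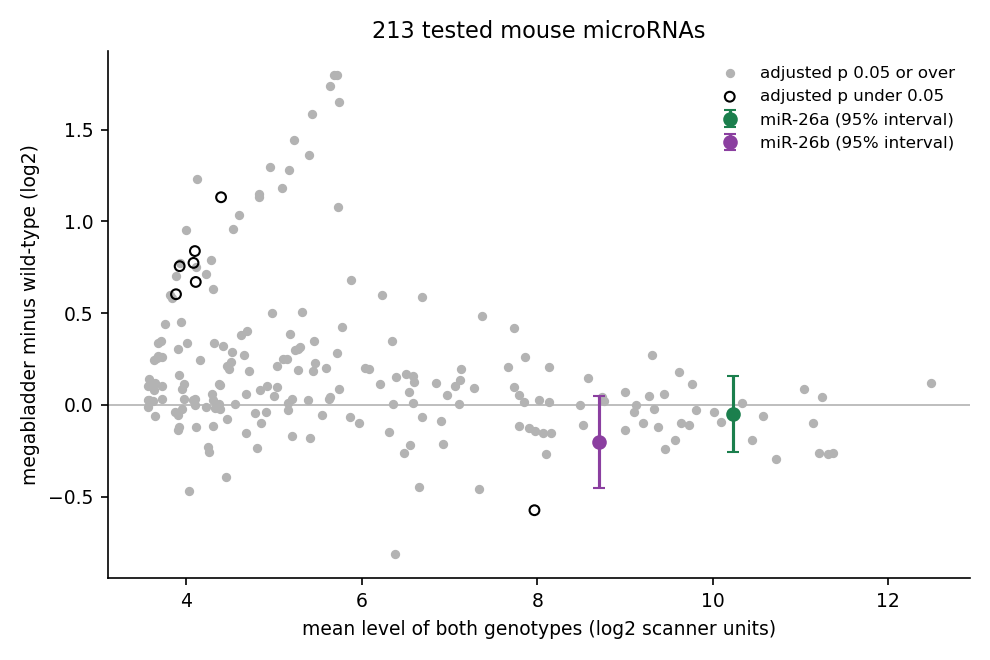
Difference between megabladder and wild-type kidneys (log2) against the mean level of both (log2 scanner units) for 213 tested mouse microRNAs, with open circles for the 7 past limma's threshold. miR-26a at -0.05 and miR-26b at -0.20 lie among the bright microRNAs, with 95% intervals that include 0.

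The ratio between the paralogs on the same array is free of any single scaling factor. The signal of miR-26a exceeded that of miR-26b by 2.76-fold, 3.16-fold and 3.18-fold in megabladder mice 2, 3 and 4, against 2.90-fold, 2.72-fold, 2.70-fold and 2.59-fold in wild-type mice 1 to 4. Megabladder mice 3 and 4 had the highest ratios, and megabladder mouse 2 lay below wild-type mouse 1. On the log2 scale the ratio was 1.60 ± 0.11 in megabladder kidneys (SD, n = 3) and 1.45 ± 0.07 in wild-type kidneys (SD, n = 4). The difference of 0.15 log2 units (1.11-fold) had a 2-sided exact permutation p of 0.114, where the smallest that 35 splits allow is 0.0286. The standard error that spots alone give to the ratio of an array was 0.014 to 0.022 log2 units.

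Single probes gave the same direction with different sizes. The difference was -0.24 for probe A_54_P2483 and -0.17 for probe A_54_P2484 of miR-26b, and -0.04 for A_54_P2481 and -0.06 for A_54_P4384 of miR-26a (log2 units), and the genotypes overlapped on each probe. All 4 probe pairs had a higher ratio of miR-26a over miR-26b in megabladder kidneys, by 0.10 to 0.20 log2 units, with pairs that share probes and arrays. With A_54_P4384 over A_54_P2483 the genotypes did not overlap. That pair's log2 ratio was 2.42, 2.59 and 2.58 in megabladder mice, against 2.41, 2.36, 2.37 and 2.30 in wild-type mice (2-sided exact permutation p = 0.0286, the smallest possible, chosen after the data were seen). The nearest mice lay close together, megabladder mouse 2 at 2.423 and wild-type mouse 1 at 2.408. How often such ratios between microRNAs separate the genotypes was not counted. Ratios of 2 probes of the same microRNA did so for 23.6% of 148 microRNAs. For the other 3 pairs the exact permutation p was 0.0857 to 0.2.

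The probes of 1 microRNA differed from each other as well. The log2 ratio of A_54_P2484 over A_54_P2483, both for miR-26b, was 0.76, 0.75 and 0.82 in megabladder mice, against 0.67, 0.69, 0.73 and 0.73 in wild-type mice. This ratio did not overlap between genotypes, as for 23.6% of 148 tested microRNAs with 2 probes. For miR-26a the ratio of A_54_P4384 over A_54_P2481 was 1.16, 1.12 and 1.00 in megabladder mice and 1.08, 1.14, 1.14 and 1.11 in wild-type mice, and it overlapped. The genotypes differed in the probe ratio of miR-26b by 0.07 log2 units on average, and in the paralog ratio by 0.15.

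**Figure D3:**
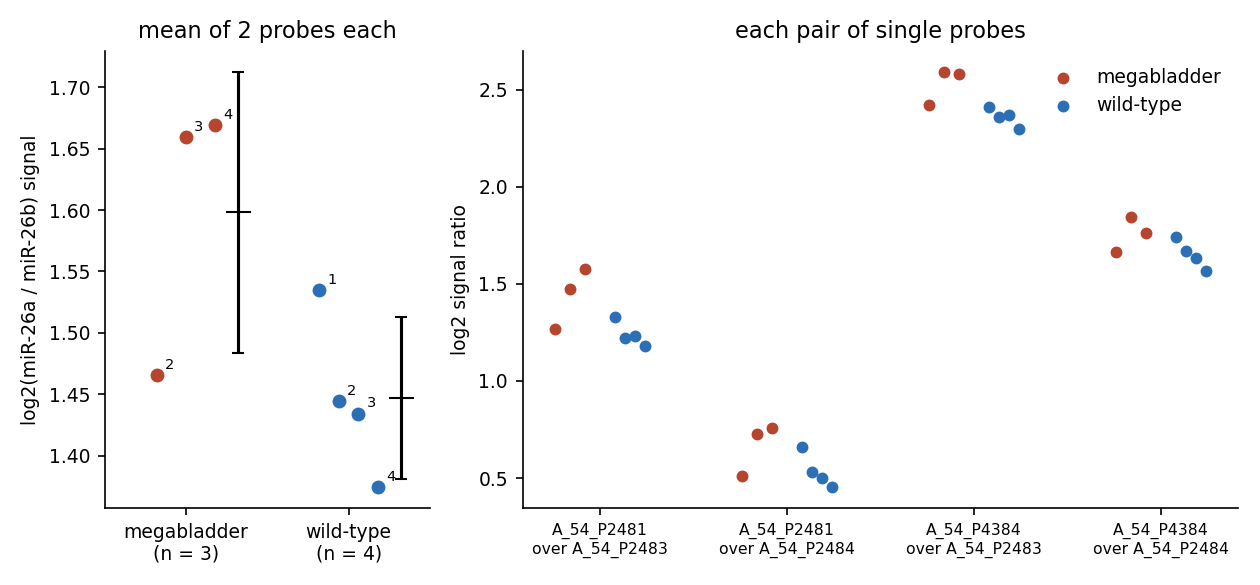
Log2 ratio of the miR-26a signal over the miR-26b signal in each mouse, from the mean of 2 probes each (left, with mean ± SD of 3 megabladder and 4 wild-type mice) and from each pair of single probes (right). The axes do not start at 0, and megabladder mice 3 and 4 lie highest at left, megabladder mouse 2 lies among the wild-type mice, and at right the genotypes separate in the pair of A_54_P4384 and A_54_P2483.

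Likeness of pattern was measured as the SD, over the 7 arrays, of the log2 difference from the member, which is small where a microRNA runs parallel to it. These values describe the same 7 arrays, which share scaling and any array effect. Nearest to miR-26a were miR-101b (SD 0.039, a dim microRNA at 4.39 log2 units, near the floor), miR-195 (0.055), miR-30a (0.065), miR-148b (0.071) and miR-30a* (0.079). Nearest to miR-26b were miR-195 (0.088), miR-200a (0.092), let-7a (0.109), let-7f (0.109) and let-7c (0.113). The paralogs had an SD of 0.115 to each other, which placed miR-26b at position 25 of 212 for miR-26a and miR-26a at position 6 of 212 for miR-26b. The median over all microRNAs was 0.243 for miR-26a and 0.291 for miR-26b.

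The 5 microRNAs nearest to miR-26b had differences of -0.14 (miR-195), -0.14 (miR-200a), -0.26 (let-7a), -0.30 (let-7f) and -0.27 (let-7c). None of them passed (adjusted p = 0.214 to 0.455 in limma). All of them but miR-200a were lower in all megabladder mice than in any wild-type mouse, as were 3.29% of microRNAs (7 of 213), while 22.1% did not overlap in either direction. They were named for running parallel to miR-26b on these arrays, so their values are no separate evidence on it. let-7 microRNAs restrain growth and stem cell programmes. Of 13 tested microRNAs held to restrain matrix genes, 10 had a negative difference, 0 passed in either direction and the median was -0.12. Over all tested microRNAs 68 of 213 were negative with a median of 0.09, and over the 67 bright ones, which most members of these lists resemble in level, 35 were negative with a median of -0.02. The brightest of them were let-7b (-0.26), let-7c (-0.27) and miR-30a (0.01). Of 12 broadly expressed guide strands, 8 were negative, 0 passed and the median was -0.07, with let-7a (-0.26), let-7f (-0.30) and let-7g (-0.19) the brightest. Of 6 microRNAs described as acting on Ezh2 or on growth alongside miR-26, 4 were tested, all 4 were negative and 0 passed. They were let-7a (-0.26), miR-101a (-0.15), miR-34a (-0.45) and miR-101b (-0.02), with a median of -0.21. miR-101 is held to repress Ezh2 as miR-26a does, and miR-34a is a target of p53.

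The authors' deposited table, processed by a method not known here, listed miR-26a at 1687, 1814 and 1687 in megabladder mice, against 1814, 1814, 1687 and 1610 in wild-type mice. In the authors' deposited table miR-26b stood at 587, 484 and 557 in megabladder mice, against 557, 587, 661 and 628 in wild-type mice. That is probe A_54_P2483 alone, whereas the scaled levels are means of 2 probes. The genotypes overlapped there for both members, as they did in the scaled levels. Repeated values between arrays are part of that table, and arrays on which a member had the same rank there held the same value. For miR-26a that was 1814 at rank 11 and 1687 at rank 12. These values thus follow rank, as under quantile scaling, and their overlap is no check separate from that alternative.

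**Figure D4:**
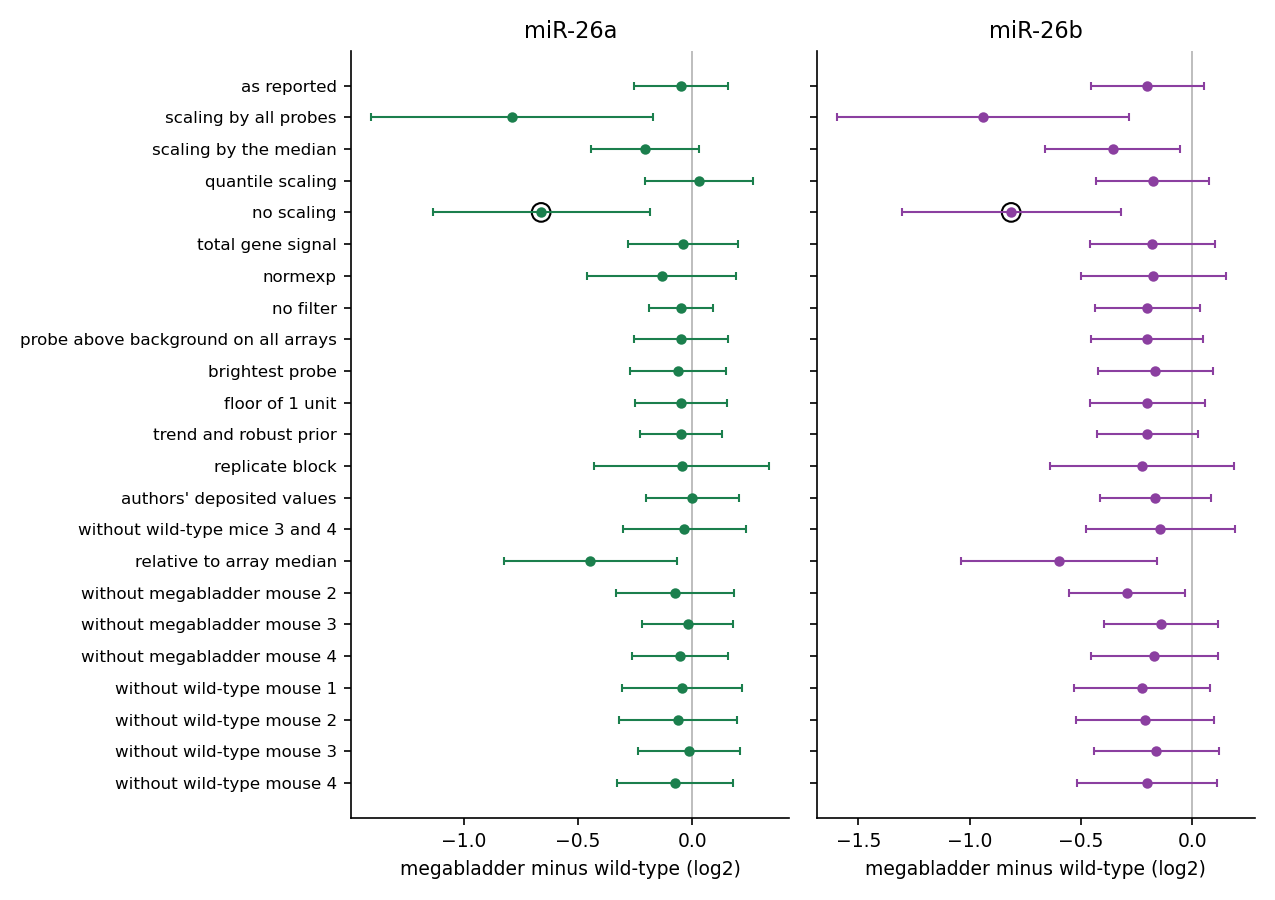
Difference between megabladder and wild-type kidneys (log2) of miR-26a (left) and miR-26b (right) under each way of processing, with limma's 95% interval. Black circles mark an adjusted p under 0.05, which was reached without scaling only, and the sign turned for miR-26a with quantile scaling only.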

How the data were processed

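MicroRNAs of whole kidneys were measured on 1-colour Agilent arrays from 100 ng of total RNA labelled with Cy3, per the labels' protocols. The deposited scanner files hold an intensity per spot, unscaled between arrays, which the authors obtained in Feature Extraction 10.7.3.1 of Agilent, per the file headers. A second deposited table gives processed intensity between 20 and 9741 under probe names, by a scaling method not stated in these sources. Both miR-26a probes hold the same value there on each array, although their scanner signals differ. Its names were used in alphabetical order up to the first one above its floor that lay over 1 log2 unit from its own signal. This left the first 532 of 650 names, which include miR-26, with 213 above the floor. That these 213 lie within 1 log2 unit is set by the cut and is no check of them. Of 29 later names above the floor, 13 lay within 1 log2 unit as well, and later names were not used.

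Control spots and outlier flags were left out, background-subtracted signals (gProcessedSignal) were averaged per probe, divided by each array's 75th percentile among probes above background throughout, floored at 11.4 units and put on a log2 scale. A level is the mean over probes above background (at least 0.5 of spots) on at least 3 arrays. The 2 groups were compared with limma 3.58.1 in R 4.3.3 over 213 microRNAs (Benjamini-Hochberg, threshold 0.05), and ratios with exact permutation tests. The fit was tested on simulated data. Arrays were checked for duplicates: in 21 pairs the median absolute probe difference was at least 1.93 spot standard errors, where spot noise alone gives 0.674. Labels name separate mice, and 7 arrays limit the precision.

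Members, lists and tests were chosen with earlier results of these data known. The rule named the members and the array's passenger strand, the 5 microRNAs of most parallel pattern, the 2 above and 2 below each member in level, and up to 3 members of each list by level, of which those of marker lists are given mainly as sums. Sequences and host genes were matched by name in RefSeq tables of GRCm38, and both members matched. The file headers name mm9, so no coordinates are given. Normexp used the median spot signal, as the mean was not in the files used. The arrays do not measure Myocd messenger RNA and so do not check the mutation.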

Additional observations from a re-analysis of the deposited data

How the results depend on the processing

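miR-26b was lower under all 22 alternatives and miR-26a under 21 (quantile scaling gave 0.029). Changed filters, the floor of 1 unit and another variance prior cannot move either difference and only repeat -0.05 and -0.20. Without scaling both passed limma's test, at -0.66 (miR-26a) and -0.81 (miR-26b), and otherwise neither did. Scaling by all probes gave -0.79 and -0.94 (adjusted p = 0.0798 for both), and the cause was not tested. Over the scalings the median difference of all microRNAs was 0.09 as reported, -0.62 (all probes), -0.06 (median), -0.14 (quantiles) and -0.49 (none). Relative to that median, miR-26a lay at -0.18 to 0.17 and miR-26b at -0.33 to -0.04 over these scalings. With normexp the median was 0.42, and miR-26a lay at -0.56 and miR-26b at -0.60 relative to it. Leaving out single arrays gave -0.08 to -0.01 for miR-26a and -0.29 to -0.14 for miR-26b. Without wild-type mice 3 and 4, chosen after seeing the data, these were -0.04 and -0.14.

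The count of called microRNAs, 7 as reported, was 0 with scaling by all probes, quantiles, normexp, no filter or a floor of 1 unit (102, 41, 53, 40 and 30 at an unadjusted p under 0.05 in limma). It was 2 with scaling by the median or total gene signal, 71 without scaling, 4 with probes above background on all arrays, 1 with the authors' deposited values and 1 without wild-type mice 3 and 4. Leaving out 1 array gave 0 to 19, namely 0 without megabladder mouse 2 or wild-type mouse 1, 2 or 3, 1 without wild-type mouse 4 and 19 without megabladder mouse 3.

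The paralog ratio was higher in megabladder kidneys under all 24 alternatives, by 0.04 (normexp, with an offset of 50 units) to 0.22, and by 0.12 to 0.22 without single arrays. Its exact permutation p was 0.571 with normexp, 0.171 with quantile scaling and 0.286 with the authors' deposited values. Scaling by all probes or the median and no scaling cannot change a ratio within an array. Changed filters and the floor do not touch these bright probes, so all these repeat 0.15. The others share arrays and mostly probes, so the count is no separate support. Leaving out 1 array leaves 20 or 15 splits, whose smallest p is 0.1 or 0.0667, so none can pass 0.05. The single probe pair A_54_P4384 over A_54_P2483, chosen after the data were seen, had a difference of 0.17 and the smallest possible p (0.0286, exact permutation). The median rank of miR-26b was 34 as reported, 41 with the brightest probe alone and 36 with total gene signal, and without single arrays it was 33.5 to 34.

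Mouse numbers 2, 3 and 4 occur in both genotypes and equal the slide column. Same-numbered mice deviated together with correlations of -0.19, 0.0042 and 0.34, so the numbers were not taken as pairs. With the mouse number as a replicate block the count was 28, miR-26a had -0.05, miR-26b -0.23 and the paralog ratio 0.18 (exact sign-flip p = 0.25, the smallest that 3 pairs allow).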
